A study of Mus musculus with 912 samples.

Results

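Splicing and RNA-binding factors were followed in single nuclei of the mouse hippocampus, in resting neurons and in neurons that had or had not switched on FOS after a mouse explored a new place. The members were taken by symbol alone: every gene of the SR, hnRNP, Prp, RBFOX, CELF, ELAVL and NOVA families, the 4 CLK kinases, Tra2a, Tra2b, Ptbp1 and Ptbp2, leaving out names that end in -ps. This gave 67 of the 42802 genes in the count tables. They were 13 SR proteins and TRA2 partners, 20 hnRNPs, 13 Prp factors, 15 neuronal regulators (RBFOX, CELF, ELAVL and NOVA), 2 PTB proteins and 4 CLK kinases.

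SR proteins bind exons and recruit the spliceosome, while many hnRNPs, PTB proteins among them, act against splice sites or package the transcript. Prp factors belong to or assist the spliceosome itself, CLK kinases phosphorylate SR proteins, and RBFOX, CELF, ELAVL and NOVA proteins adjust splicing or RNA stability in neurons. All measurements below are of gene-level RNA in nuclei, so neither splicing nor protein was measured.

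The nuclei came from wild-type female C57BL6 mice aged 7.75 to 9.0 weeks, and each nucleus was 1 SmartSeq2 library. In the first cohort (360 nuclei) mice stayed in the home cage (HC) or spent 15 min in an unfamiliar environment 1 h before they were killed (1h), and nuclei were sorted on NEUN, PROX1, CTIP2 and FOS. In the second cohort (552 nuclei of the dentate gyrus, DG) ARC+ nuclei were sorted 4 h (4h) or 5 h (5h) after the exposure to environment A, or 1 h after another 15 min in A (A>A) or in a different environment (A>C) that came 4 h after the first. The 4h and 5h nuclei were FOS-, and A>A and A>C nuclei were sorted as FOS+ and FOS-. The second cohort was not stained for NEUN, which is the product of the member Rbfox3.

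After thresholds on reads and genes, 818 of 912 nuclei remained. Of these, 35 FOS- nuclei of the first cohort were left out for high Arc, which limits Arc in the HC and 1h FOS- groups. The 783 nuclei kept had 142275 to 5885216 counts each (median 1251690), and the mouse was the replicate. DG had 2 HC mice with 18 and 5 nuclei, 1 mouse with 1h nuclei (26 FOS+ and 27 FOS-), 2 mice at 4h, 4 at 5h, 6 in each A>A group and 2 in each A>C group. The 1h DG mouse was assumed to vary like the other DG mice. The granule cell list (Prox1, Dsp, C1ql2 and Calb1) averaged 5.01 and 5.26 on the log2(TPM+1) scale in the HC mice, 4.95 in 1h FOS- and 3.15 in 1h FOS+ DG nuclei, 2.48 to 4.10 in the second cohort and at most 1.57 in CA1 mice. The interneuron list (Gad1, Gad2 and Slc32a1) averaged 0.499 and 0.922 in HC, 1.23 in 1h FOS-, 2.04 in 1h FOS+ and 0.499 to 2.26 in the second cohort. The activity list (Arc, Fos, Fosb, Inhba, Nr4a1 and Bdnf) averaged 7.16 in 1h FOS+ DG nuclei, 1.16 in 1h FOS- nuclei and 1.14 to 1.41 in HC, and the oligodendrocyte list reached 3.01 in 1 of the HC mice against 2.27 or less in every other DG group. These lists thus moved with the 1h FOS+ comparisons and with those against HC, and their part in the results was not tested.

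The promoters of 4 members are shown first, because these are the members whose A>A FOS+ mice all lay above the A>A FOS- mice. The letters are from RefSeq on GRCm38.p6, 5′ to 3′ on the gene's strand, and they stop before or at the transcription start. Capitals mark TGACG or its reverse complement CGTCA, the core of the cAMP response element (CRE) through which CREB acts in stimulated neurons, and the last has the full palindrome TGACGTCA once. They are Prpf38b at chr3:108911730-108911879 on the minus strand, Srsf5 at chr12:80945397-80945498 on the plus strand, Srsf7 at chr17:80207308-80207457 on the minus strand, and an internal start of Clk4 at chr11:51263047-51263113 on the plus strand.
Prpf38b: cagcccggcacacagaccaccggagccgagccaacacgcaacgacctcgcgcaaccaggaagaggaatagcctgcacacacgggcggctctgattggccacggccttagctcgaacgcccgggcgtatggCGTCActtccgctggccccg
Srsf5: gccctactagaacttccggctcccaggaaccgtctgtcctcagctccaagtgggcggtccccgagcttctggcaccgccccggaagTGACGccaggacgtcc
Srsf7: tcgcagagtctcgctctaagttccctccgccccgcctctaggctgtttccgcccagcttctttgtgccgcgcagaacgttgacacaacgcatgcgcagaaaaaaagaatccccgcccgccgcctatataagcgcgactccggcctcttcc
Clk4: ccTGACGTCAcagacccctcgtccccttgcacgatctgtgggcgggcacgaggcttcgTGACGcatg

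The core was present once in the Prpf38b and Srsf5 stretches and was absent from the Srsf7 stretch. Over the 250 bases before each RefSeq start, on both strands, TGACG stood in 37 of 99 member promoters (37.4%) and in 17.8% of all 32851 promoters. The full TGACGTCA stood in 6 of the 99 (6.06%, in Celf3, Celf6, Clk4 and Tra2a) and in 1.55% of all. Windows of 1 gene can overlap in both sets, and 3 of the 6 were Celf3 windows that hold the same site. TGANTCA, the AP-1 element bound by FOS and JUN, stood in 4.04% of member promoters and 6.75% of all, the E-box CACGTG in 8.08% and 6.02%, and the EGR element GCGTGGGCG in 1.01% and 0.536%. Member promoters were richer in G and C (median 60.8% against 52.4%) and its part in these shares was not tested. The shares describe letters and not bound sites. Promoters were found for 60 of the 67 members.

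Members ranged from the most abundant genes to genes seen in few nuclei. Compared per transcript length, Celf2, a CUG-binding splicing regulator, had a mean log2(TPM+1) of 9.65 over all nuclei kept and ranked 24 among all genes, with a count in 99.36% of nuclei. Srsf5 (8.45, rank 64), Srsf2 (8.06, rank 87), the kinase Clk1 (7.85, rank 104) and Hnrnpa2b1, an hnRNP that also carries RNA into dendrites (7.67, rank 121), followed. At the other end Nova1, whose product binds clustered sites in neuronal transcripts, had a mean of 0.47 and a count in 16.6% of nuclei. The 67 members together took 0.857 to 1.54% of a mouse's counts. In DG this share was 0.946 and 1.04% in the HC mice, 1.26% in 1h FOS- and 1.47% in 1h FOS+ nuclei, 1.05 to 1.31% in A>A FOS- and 1.22 to 1.54% in A>A FOS+ mice, and 1.01 and 1.08% against 1.38 and 1.43% in A>C.

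In DG nuclei 1 h after the unfamiliar environment, the Prp factor Prpf38b, a predicted partner of the spliceosome, was the member that rose with FOS. It lies on chromosome 3 at 108902805 to 108911727 on the minus strand. Its level, the mean log2(TPM+1) over a mouse's nuclei, was 2.74 in the 27 FOS- nuclei and 7.32 in the 26 FOS+ nuclei of the 1 mouse, and all 26 FOS+ nuclei held a count against 20 of the FOS- nuclei. The HC mice were at 3.97 and 4.11. The fitted log2 fold change of FOS+ over FOS- was 3.44 ± 0.57 (SE; edgeR quasi-likelihood test, adjusted p = 0.0286). With the mouse as a block it was 3.45 and no member passed (adjusted p = 0.351). Prpf38b was the only member called, against 0.0451% of the 24405 genes tested. At an unadjusted p under 0.05 there were 3 members, all higher (3.02% of genes), DESeq2 called Prpf38b, Srsf5 and Hnrnpu (4.33% of genes) and limma called 0 (0.883%).

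Srsf5, an SR protein first known as an insulin-induced gene of liver cells, stood at 8.10 in 1h FOS- and 10.07 in 1h FOS+ DG nuclei, and Hnrnpu, a nuclear scaffold hnRNP, at 3.58 and 6.41. Their fitted log2 fold changes were 2.05 ± 0.64 (adjusted p = 0.988) and 2.02 ± 0.52 (adjusted p = 0.472), short of the threshold. Hnrnpu was at 6.35 and 6.63 in the HC mice, so the FOS+ nuclei were close to HC and the FOS- nuclei were low. Its exons overlap those of Cox20 on the other strand, and the libraries do not keep strand. SR proteins had a fold above 0 in 10 of 13 cases with a median log2 fold of 0.85, against 36 of all 67 members and 39.3% of all genes, and the neuronal regulators in 3 of 15 with a median of -0.76.

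Against HC, 2 members rose in 1h FOS+ DG nuclei. Prpf38b gave 2.49 ± 0.43 (adjusted p = 0.01) and Srsf5, which was at 7.22 and 8.12 in the HC mice, gave 2.78 ± 0.52 (adjusted p = 0.0168). The call rate over all genes was 0.27%, and without the HC mouse that had 5 nuclei neither was called. Srsf7 was at 6.49 and 7.33 in HC and 8.79 in 1h FOS+ nuclei (log2 fold 2.20 ± 0.72, adjusted p = 0.443). At an unadjusted p under 0.05 there were 9 members, all higher (5.9% of genes), and 5 of the 9 were SR proteins. DESeq2 called 2 members (7.28% of genes), while limma called 1, Prpf19, lower (4.28%). The 1h FOS- nuclei of the same mouse gave no call against HC (background 0.0041%), with 2 members under 0.05, Srsf6 higher and Hnrnpu lower (2.8% of genes), 1 in DESeq2 (Hnrnpu, lower, 2.52%) and 0 in limma (0.0525%). Their log2 folds were 1.79 for Srsf6, -1.46 for Hnrnpu and -0.96 for Prpf38b, and that of Srsf6 was 1.06 or 3.37 without 1 HC mouse or the other. These comparisons share the HC mice with those at 4h and 5h. The 1h DG mouse and the HC mice were collected on different dates, so exposure and date cannot be told apart in them.

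**Figure D1:**
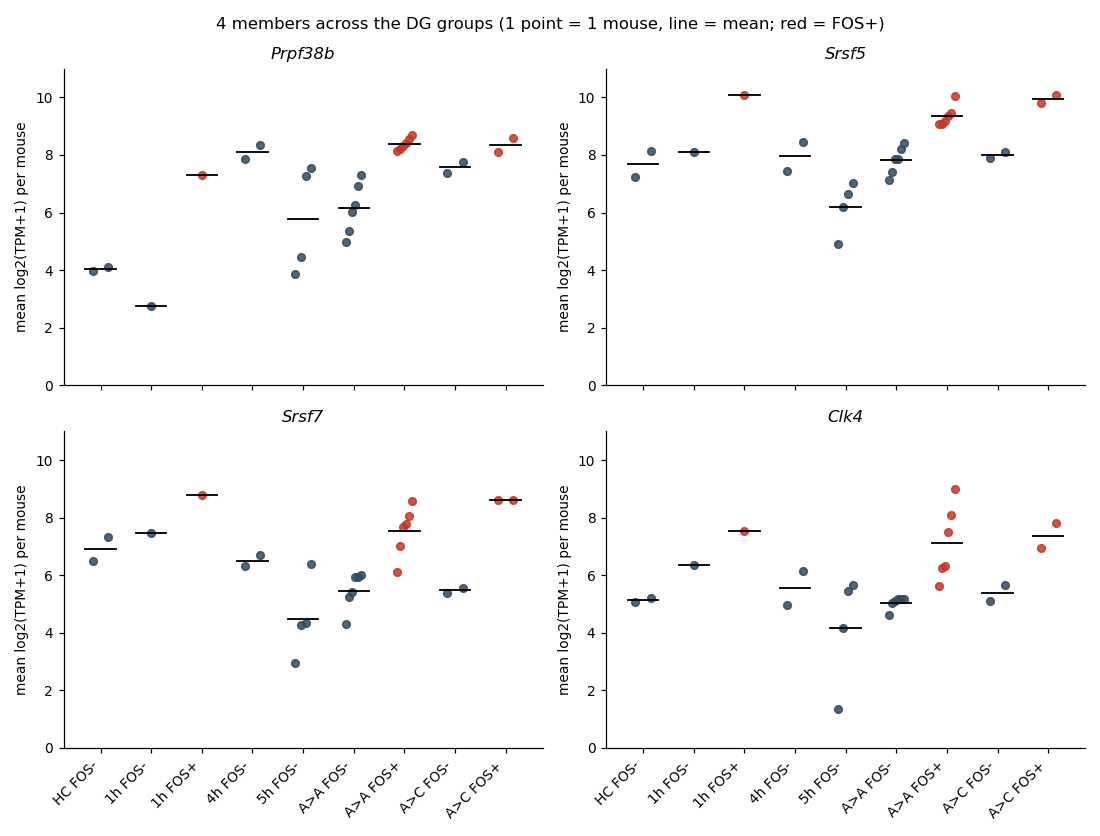
Level of Prpf38b, Srsf5, Srsf7 and Clk4 in the DG groups, as the mean log2(TPM+1) over the nuclei of each mouse (points, FOS+ groups in red, lines at the group mean). Prpf38b was near 4 in HC, above 7 in 1h FOS+, 4h, A>A FOS+ and A>C nuclei of both kinds, and split at 5h, whereas Srsf5 and Srsf7 were highest in the FOS+ groups.

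At 4h, after a single exposure, ARC+FOS- nuclei still held high Prpf38b. The 2 mice at 4h were at 7.87 and 8.35, both above the HC mice, and the log2 fold change was 2.62 ± 0.39 (edgeR quasi-likelihood, adjusted p = 0.00209). It was the only member called (0.246% of all genes). Srsf5 was at 7.44 and 8.46 and Srsf7 at 6.31 and 6.70 at 4h, and both overlapped their HC values. Hnrnpa1, a splicing repressor that shuttles to the cytoplasm, was at 5.05 and 5.24 at 4h but at 2.19 and 5.29 in HC (2.10 ± 0.60, adjusted p = 0.313), and its reads may be shared with processed pseudogenes. Hnrnph1 gave 1.40 ± 0.41 (adjusted p = 0.343), and 0.86 without mouse 21. The number of members under an unadjusted 0.05 was 8, all higher (5.58% of genes), and 4 of them were hnRNPs. DESeq2 called 2, Hnrnpa1 and Prpf38b (4.14%), and limma 3, Prpf38b higher and Prpf19 and Rbfox3 lower (4.24%). Without 1 HC mouse or the other, edgeR called 0 or 2 members at 4h.

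At 5h Prpf38b was split between mice. It was at 7.28 and 7.54 in mice 22 and 8 and at 3.85 and 4.47 in mice 23 and 9, and in mouse 23, which had 6 nuclei, 82% of the Prpf38b counts came from 1 nucleus. Its log2 fold change over HC was 1.67 ± 0.34 (adjusted p = 0.0432), the only call (0.262% of all genes), and it was lost when any of 15 of 21 mice was left out. With only the 5h mice of the earlier date the value was 1.51 (adjusted p = 0.0971). Prpf19, the ubiquitin ligase of the Prp19 complex, gave -4.12 ± 1.06 (adjusted p = 0.135) and Srsf10 1.69 ± 0.51 (adjusted p = 0.246). At an unadjusted p under 0.05 there were 7 members higher and 3 lower (10.3% of genes). DESeq2 called 6 (8.14%), Prpf19 lower and Prpf38b, Prpf40b, Srsf10, Srsf11 and Srsf12 higher, whereas limma called 6, all lower (11.7%), namely Clk1, Hnrnpd, Prpf19, Prpf4b, Rbfox3 and Srsf7. Median depth per nucleus at 5h ran from 350943 to 1776118 counts by mouse, and its part in these values was not tested. The 4h and 5h mice and the HC mice were collected on different dates and in different cohorts, so time and date cannot be told apart.

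After re-exposure to the same environment, FOS+ and FOS- nuclei could be compared over 6 mice each. Only 4 mice gave both kinds, and the main test did not pair them. The FOS+ nuclei came from 3 dates and the FOS- nuclei from 4, so FOS and date cannot be fully told apart. The labels give mice 19 and 20 of the FOS- group 2 dates and more than 1 age, and each was counted as 1 mouse. Prpf38b was at 8.13 to 8.68 (median 8.35) in FOS+ mice and 4.98 to 7.30 (median 6.14) in FOS- mice. The FOS- mice were thus above HC and below the FOS+ mice, and the groups did not overlap. The fitted log2 fold change was 1.11 ± 0.21 (edgeR quasi-likelihood, adjusted p = 0.0585). By this test 0 members passed (0.041% of all genes), with 9 at an unadjusted p under 0.05, 5 higher and 4 lower (15.4% of genes). DESeq2 called 4, Hnrnpll, Prpf38b, Rbfox1 and Srsf5 (3.58%), and limma called 5, Prpf38b, Rbfox1, Srsf10, Srsf5 and Srsf7 (2.96%). When all nuclei were used without thresholds, or mice were separated by date, edgeR called Prpf38b and Rbfox1.

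Of the SR proteins, 0 passed edgeR's test in A>A, 2 of 13 were under an unadjusted 0.05, and these 2, Srsf5 and Srsf7, did not overlap between the groups. Srsf5 was at 9.08 to 10.06 (median 9.26) in FOS+ and 7.13 to 8.40 (median 7.87) in FOS- mice, and Srsf7 at 6.13 to 8.56 (median 7.73) and 4.29 to 6.01 (median 5.67). Their fitted folds were 0.88 ± 0.25 (adjusted p = 0.243) and 1.09 ± 0.36 (adjusted p = 0.26). Clk4, a kinase of SR proteins, ran from 5.64 to 9.00 in FOS+ and from 4.61 to 5.18 in FOS- mice, again without overlap, but over summed counts its fold was 0.60 ± 0.51 and it did not pass. Of the 64 members with a mean log2(TPM+1) of 0.5 or more, these 4 were higher and Rbfox1 lower without overlap, against 2.79% of all genes in either direction. All 13 SR proteins had a fold above 0 (0.18 to 1.09, median 0.42), against 40 of all 67 members and 45.4% of all genes. Hnrnpll, which resembles hnRNP L, was at 2.14 to 4.38 in FOS+ and 0.98 to 2.29 in FOS- mice (1.69 ± 0.57, adjusted p = 0.261). Srsf5, Srsf7, Hnrnpll and Prpf38b were on lists that the study drew from these nuclei, so their direction here is not independent of it.

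The other members described for their role overlapped between the A>A groups. Srsf11 was at 7.40 to 8.80 in FOS+ and 5.07 to 7.77 in FOS- mice (0.45 ± 0.23). Srsf2, which also acts in transcription elongation, was at 7.02 to 9.02 and 6.24 to 8.79, Srsf1 at 1.64 to 5.04 and 1.35 to 4.88, and Srsf3 at 3.26 to 4.88 and 2.90 to 4.87, with folds of 0.30, 0.22 and 0.30. Tra2a, a splicing activator, was at 2.51 to 4.17 and 1.27 to 2.96, and Tra2b at 5.40 to 6.88 and 4.50 to 7.50. Srsf10 was at 5.78 to 7.05 and 3.10 to 5.95 by mean log2 level, but its fold over summed counts was 0.18 ± 0.31. These values therefore depend on whether a mouse is summarised by its mean log2 level or by its summed counts. Clk1, which like Clk4 phosphorylates SR proteins, was at 6.18 to 8.27 and 6.09 to 7.64 (0.08 ± 0.29). Prpf8, the core protein of the spliceosome's active site, was at 0.76 to 1.81 and 1.06 to 1.94, and Celf2 at 9.60 to 10.41 and 9.60 to 10.31, so neither separated the groups.

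Rbfox1, a neuronal splicing regulator with targets in synaptic and channel genes, was lower in FOS+ nuclei of A>A. It was at 4.26 to 5.16 (median 4.92) in A>A FOS+ mice and 5.84 to 7.71 (median 7.08) in FOS- mice, with no overlap, and its fitted log2 fold change was -1.24 ± 0.25 (adjusted p = 0.0619). The HC mice were at 6.84 and 6.85, at the level of the FOS- mice, and the 1h mouse was at 6.52 in FOS- and 5.35 in FOS+ nuclei. The fitted FOS change at 1h lay 1.33 ± 0.65 above that in A>A. Over summed counts the fit thus gave no fall at 1h, unlike the mean log2 level. The gene spans chromosome 16 from 5885355 to 7411526 on the plus strand and no exon of another gene overlapped it on the other strand. Among the other members under an unadjusted 0.05 in A>A, Celf4 (-0.66), Prpf39 (-0.88) and Hnrnpk (-0.74) had folds below 0 and Hnrnpu 0.46. Granule cell markers averaged 2.49 to 3.67 in FOS+ and 2.48 to 4.10 in FOS- mice, and the median depth per nucleus was 767842 to 2285993 in FOS+ and 1890936 to 2694302 in FOS- mice, whose part was not tested.

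Mice 24 to 27 gave both FOS+ and FOS- nuclei in A>A. FOS+ minus FOS- was 3.42, 1.24, 1.95 and 1.37 for Prpf38b and 2.05, 2.19, 0.88 and 0.68 for Srsf5. For Srsf7 it was 1.67, 2.64, 0.90 and 1.61. For Rbfox1 it was -2.77, -1.58, -1.58 and -1.35. Since the A>A groups did not overlap for these genes, the signs are fixed by that and only the sizes add to it. Hnrnpa2b1 (0.85 to 1.77), Hnrnpll (0.53 to 1.32) and Tra2a (0.76 to 1.81) were also higher in 4 of 4 mice. Of the 64 members with a mean log2(TPM+1) of 0.5 or more, 10 were higher in every mouse, Clk4, Prpf4 and Srsf10 among them, against 8.1% of 11436 genes. There were 9 lower in every mouse, against 16.3% of these genes, Celf4, Hnrnpa1, Hnrnpa3, Hnrnph3, Prpf18, Prpf39, Prpf40b, Ptbp2 and Rbfox1. Not all SR proteins shared a sign, and Srsf6 was lower in 3 of 4 mice.

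**Figure D2:**
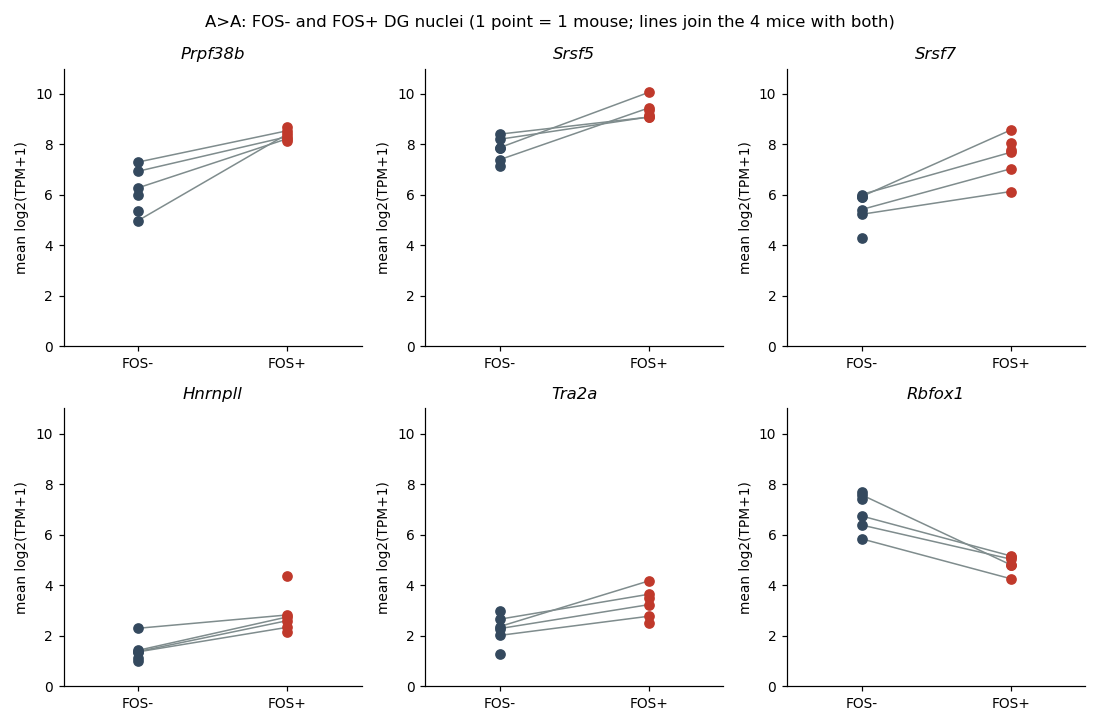
Level of 6 members in FOS- and FOS+ nuclei after re-exposure to the same environment, as mean log2(TPM+1) per mouse (points), with lines joining the 4 mice that gave both kinds of nuclei. FOS+ lay above FOS- on every line for Prpf38b, Srsf5, Srsf7, Hnrnpll and Tra2a and below it for Rbfox1.

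After exposure to a different environment, Srsf5 was at 9.81 and 10.07 in the 2 FOS+ mice and 7.89 and 8.09 in the 2 FOS- mice. Srsf7 was at 8.61 and 8.63 against 5.38 and 5.57, and Clk4 at 6.94 and 7.81 against 5.12 and 5.66. Each had FOS+ mice above FOS- mice. The fitted folds were 1.83 ± 0.45 for Srsf5 (adjusted p = 0.579) and 2.06 ± 0.63 for Srsf7 (adjusted p = 0.899), and Hnrnpa1 was lower (1.36 and 2.66 against 3.42 and 3.56, -1.79 ± 0.59, adjusted p = 0.899). Prpf38b was high in both kinds of nuclei, at 8.10 and 8.58 in FOS+ and 7.39 and 7.77 in FOS- mice, with a fold of 0.80. By edgeR 0 members passed (0% of all genes), with 5 higher and 2 lower under an unadjusted 0.05 (4.46%), 4 called by DESeq2 (Elavl4, Hnrnpa1, Srsf5 and Srsf7, 4.63%) and 0 by limma (0.726%). SR proteins were above 0 in 11 of 13 cases (median 1.31), hnRNPs in 17 of 20 (0.42), CLK kinases in 4 of 4 (1.11) and neuronal regulators in 3 of 15 (-0.45), with 41.4% of all genes above 0. FOS+ and FOS- nuclei of A>C came from different animals on different dates, so FOS and date cannot be told apart there, and the FOS+ nuclei were shallower (716336 and 772966 counts per nucleus at the median against 1017059 and 1137859), whose part was not tested.

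Families were summed as CPM, here counts scaled to the total of the mouse after adjustment by its TMM factor, not to the raw total. The 13 SR proteins took 1533 and 2404 CPM in the HC mice, 2783 in 1h FOS- and 5635 in 1h FOS+ nuclei. In A>A the sums were 2349 to 3163 in FOS- and 3351 to 5886 in FOS+ mice, and in A>C 1936 and 2120 against 4693 and 4862. Neither pair of groups overlapped on this scale. Without Srsf5 and Srsf7 the sums were 1980 and 2571 at 1h, 1596 to 2041 and 1985 to 2913 in A>A, which overlapped, and 1362 and 1453 against 2409 and 2475 in A>C. The neuronal regulators ran from 2945 to 4389 in A>A FOS- and 2659 to 3138 in FOS+ mice, and the hnRNPs from 2487 to 5056 and 2857 to 5336. A sum is led by its most abundant genes, and Celf2 leads the neuronal regulators.

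**Figure D3:**
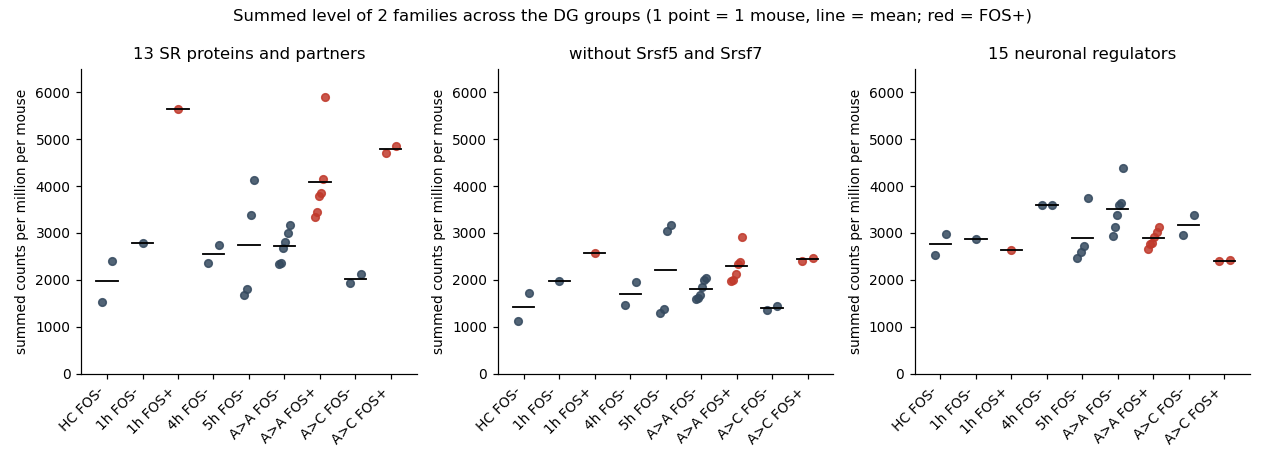
Summed CPM of the 13 SR proteins and TRA2 partners, of the same genes without Srsf5 and Srsf7, and of the 15 neuronal regulators in the DG groups (points are mice, FOS+ groups in red, lines at the group mean). FOS+ sums of the SR proteins lay above FOS- sums in A>A and A>C, and without Srsf5 and Srsf7 the A>A groups overlapped.

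In CA1 and VIP cells, edgeR called no member between FOS+ and FOS- nuclei, and CA3 and the subiculum were not tested for this. In CA1 pyramidal neurons (3 mice with both kinds of 1h nuclei) Prpf38b was at 1.87 to 6.43 in FOS+ and 2.46 to 5.85 in FOS- mice and Srsf5 at 8.76 to 9.43 and 7.87 to 8.99, and both overlapped. The folds were 1.31 ± 1.07 and 0.59 ± 0.54. Of the 67 members 0 were called by edgeR (0% of all genes), 1 was under an unadjusted 0.05, Hnrnpa0 (4.34%), and DESeq2 and limma called 0 (1.56% and 0% of genes). Hnrnpa0 had 334, 0 and 218 counts in the FOS+ mice and 0 in each FOS- mouse. Hnrnpa2b1 had a log2 fold of 0.73. CA1 1h FOS- against HC gave 0 calls (0%), 2 higher and 2 lower under 0.05 (5.03%), and 0 in DESeq2 (1.8%) and limma (0%). Hnrnpa0 had 9, 2 and 88 counts in the HC mice.

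In VIP interneurons, 2 mice had FOS+ and 3 had FOS- nuclei at 1h. Prpf38b was at 2.52 and 3.11 in FOS+ and 0.19 to 1.97 in FOS- mice, with a fold of 0.41 ± 2.31, and Srsf5 at 8.28 and 8.78 against 2.60 to 9.84 (0.07 ± 1.31). SR proteins were above 0 in 3 of 13 cases (median -0.34). By edgeR 0 members were called (0% of all genes) and 0 were under an unadjusted 0.05 (4.84%), DESeq2 called 1, Srsf4 (1.18%), and limma 0 (0%). Srsf4 had 0 counts in both FOS+ mice and 137 counts in 1 of the 3 FOS- mice, so 1 mouse carried the call. The smallest p values after it belonged to Elavl1 (-3.83 ± 1.98) and Prpf38a (-3.39 ± 1.82), and Prpf38a ran from -6.62 to -2.05 and Elavl1 from -5.06 to -2.0 when 1 mouse was left out. For VIP 1h FOS- against HC edgeR called 0 (0%), 1 member was under 0.05, Hnrnpll (log2 fold 3.46, 6.06% of genes), and DESeq2 and limma called 0 (2.15% and 0%). Srsf2 had a fold of 0.78 and Celf2 of -2.11 in it. The VIP marker list (Vip, Calb2 and Cck) ran from 0.52 to 7.78 in the 1h FOS- VIP mice, and whether these mice held the same mix of cells was not tested.

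**Figure D4:**
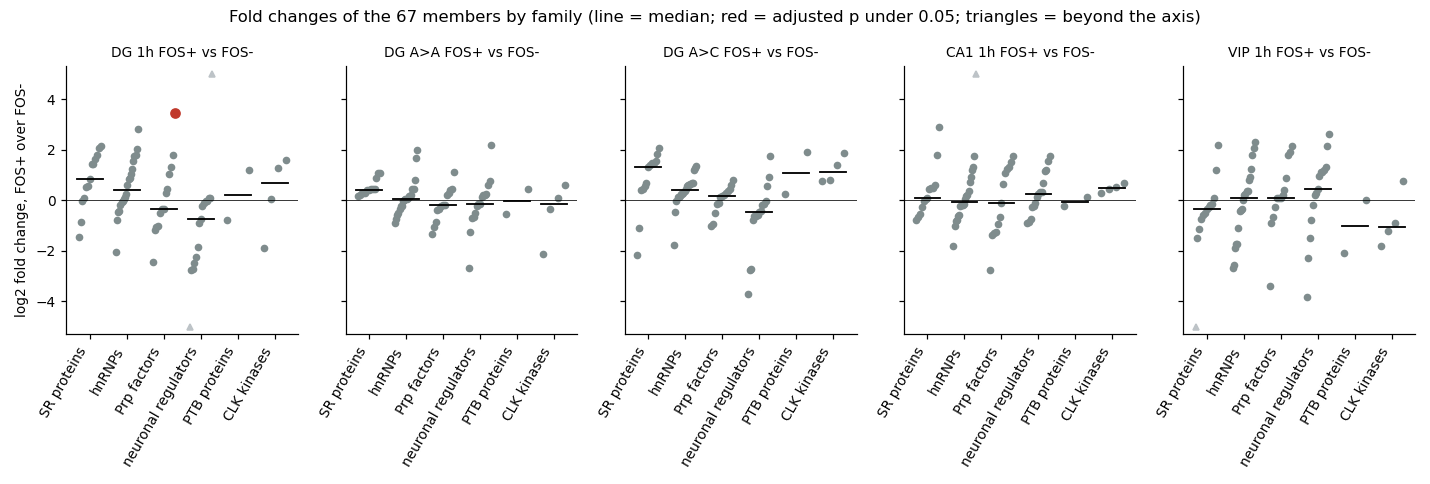
Fitted log2 fold changes of FOS+ over FOS- nuclei for the 67 members in 3 DG comparisons, CA1 and VIP, by family (points are genes, lines are medians, red marks a called gene, triangles lie beyond the axis). SR protein medians were 0.85 at 1h, 0.42 in A>A and 1.31 in A>C in DG, and 0.07 in CA1 and -0.34 in VIP.

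Whether the FOS change itself differed between cell types was tested directly. The 1h DG mouse shared no date with the CA1 or VIP mice, so cell type and date cannot be told apart in the tests against CA1 and VIP. Between DG and CA1 edgeR called 0 members (0.00458% of all genes), 1 was under an unadjusted 0.05 (1.67%), DESeq2 called 1, Elavl2 (1.71%), and limma 0 (0.015%). Between DG and VIP edgeR called 0 (0.00458%), 2 were under 0.05, Elavl2 and Srsf7 (2.14%), DESeq2 called Elavl2 and Srsf4 (2.4%), and limma 0 (0.015%). The difference for Srsf7 was 2.39 ± 1.12 (adjusted p = 1) and for Prpf38b 2.12 ± 3.09 against CA1 and 3.05 ± 3.25 against VIP, both within 1 SE of 0. Hnrnpa0 (-7.37 ± 4.84) and Hnrnpu (1.89 ± 1.30) had the next smallest p against CA1 and Hnrnpll (4.36 ± 2.29) against VIP. Elavl2 was fitted at -11.88 and -10.85, but it had 547 counts in 1 of 27 FOS- DG nuclei and 0 in FOS+ nuclei, so 1 nucleus carried it. Within DG, the FOS change at 1h against that in A>A gave 0 edgeR calls (0.0041%), 2 under 0.05 (2.46%), 1 in DESeq2, Prpf38b (3.19%), and 0 in limma (0.0437%). Prpf38b differed by 2.33 ± 0.57 (adjusted p = 0.549), Hnrnpu by 1.57 ± 0.55 and Rbfox1 by 1.33 ± 0.65 (adjusted p = 1 for both).

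Between cell types the members called were the neuronal regulators Elavl4 and Celf2. FOS- nuclei of the first cohort were compared by the types the study predicted from these same transcriptomes, with Celf2 among its classifier genes, so the type comparisons are not independent of the values. Elavl4, the RNA-stabilizing protein HuD, had 2 counts over 50 DG nuclei (2 nuclei, 4%, exact 95% interval 0.488 to 13.7), 1824 over 40 CA1 nuclei (20 nuclei, 50%, 33.8 to 66.2) and 1616 over 38 VIP nuclei (18 nuclei, 47.4%, 31.0 to 64.2). These intervals treat nuclei as independent, although they came from few mice, and do not cover the spread between mice. By mouse the level of Elavl4 was 0.00 to 0.03 in 3 DG mice, 1.47 to 4.18 in 6 CA1 mice, 2.41 to 3.88 in 3 CA3 mice, 2.53 to 4.62 in 5 subiculum mice, 2.29 to 6.80 in 3 mice with Ivy cells and 1.47 to 6.13 in 6 VIP mice. Every DG mouse lay below every other mouse, and the others overlapped. The DG mice shared no date with the mice of the other types, so cell type and date cannot be told apart in any comparison with DG. CA1 had 1310 times the DG level relative to total counts (exact interval 362 to 10800, covering counting error only), and the adjusted p were 0.000297 for DG against CA1 and 0.000113 for DG against VIP. Grouped by the sort gate in place of the predicted type, Elavl4 was called in both (adjusted p = 0.0427 and 0.0104), while limma on the mean log2 level of each mouse called neither (adjusted p = 0.251 and 0.132). The gene lies on chromosome 4 at 110203722 to 110351909 on the minus strand, and no exon on the other strand overlapped it.

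The DG nuclei of the second cohort were not all as low in Elavl4. It had 1454 counts in 5 of 68 nuclei at 4h, 620 in 8 of 59 at 5h, 2215 in 7 of 130 A>A FOS+ and 550 in 7 of 129 A>A FOS- nuclei, and 0 to 3 counts in the A>C groups. By mouse the level there reached 1.12 at most, below the lowest CA1 mouse. A share of nuclei with a count depends on depth, and cohort and NEUN staining cannot be told apart here.

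Celf2 was lower in VIP interneurons than in the other types compared. It was at 2.87 to 6.88 in the 6 VIP mice, 10.15 to 10.88 in the 6 CA1 mice, 9.66 to 10.31 in DG, 9.95 to 10.96 in CA3, 9.11 to 11.06 in the subiculum and 8.37 to 9.54 in Ivy cells. The VIP mice lay below the mice of these other types, while CA1, CA3, DG and the subiculum overlapped. Parvalbumin cells, with too few mice to compare, were at 6.26 and 7.63 in 2 mice, and the former lay inside the VIP range. The log2 fold change was -2.73 ± 0.49 for VIP against CA1 (adjusted p = 0.00642) and 2.65 ± 0.55 for DG against VIP (adjusted p = 0.0201). By sort gate they were -1.85 (adjusted p = 0.35) and 1.77 (adjusted p = 0.152), not called. Exons of Celf2 overlap Gm26565 on the other strand. Elavl2, the related HuB, had a count in 1 of 50 DG, 12 of 40 CA1, 9 of 12 CA3 and 25 of 38 VIP nuclei. Rbfox2 was at 0.69 to 2.58 in DG, 1.28 to 2.69 in VIP and 3.28 to 5.71 in CA1 mice, so DG and VIP both lay below CA1. Rbfox3 ran from 3.86 to 5.91 in DG, 2.14 to 4.13 in CA1 and 1.48 to 4.09 in VIP, and its product NeuN was part of the sort.

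**Figure D5:**
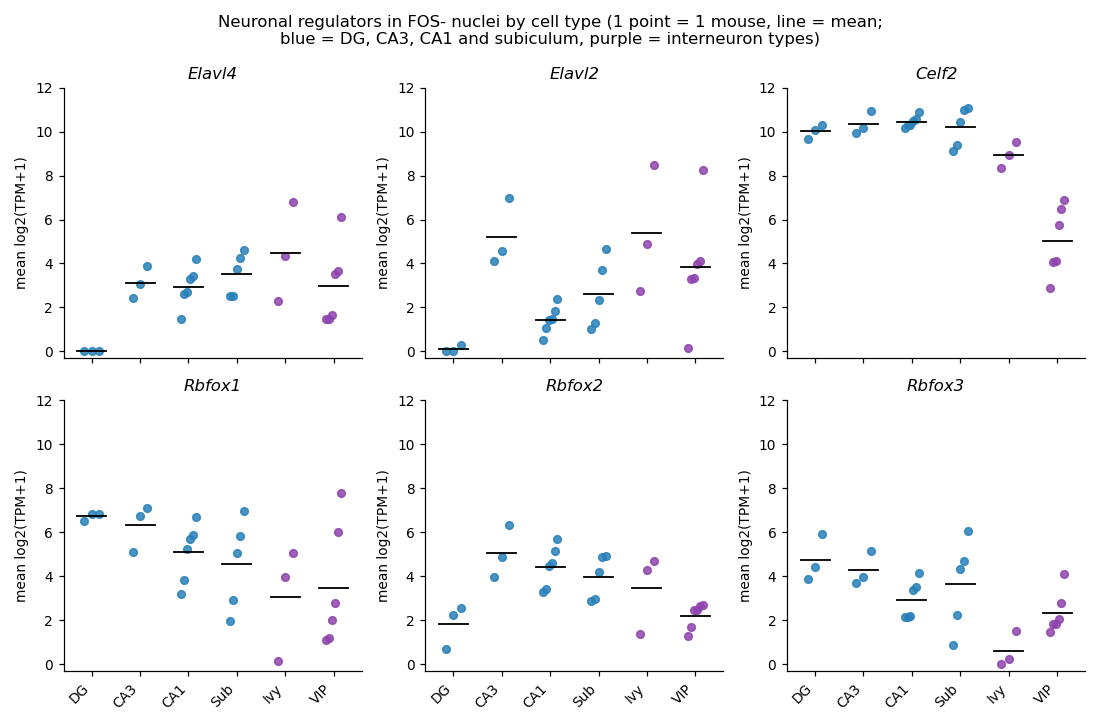
Level of 6 neuronal regulators in FOS- nuclei of the first cohort by predicted cell type, as mean log2(TPM+1) per mouse (points, lines at the mean). Elavl4 was between 0.00 and 0.03 in the 3 DG mice, Celf2 was lower in the 6 VIP mice (2.87 to 6.88) than in any other mouse plotted, and Rbfox1 and Rbfox3 overlapped between most types.

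Few other members differed between types. DG against CA1 gave 1 call (0.199% of all genes), 2 members under an unadjusted 0.05, Elavl4 lower and Hnrnpd higher (7.97%), 1 in DESeq2 (2.89%) and 0 in limma (0.579%). Hnrnpd had a fold of 2.84 and Tra2b of 1.16. VIP against CA1 gave 1 call (0.758%), 1 higher and 4 lower under 0.05 (14.6%), 3 in DESeq2, Celf2, Hnrnpl and Srsf9 (6.77%), and 4 in limma, these with Celf1 (2.19%). Hnrnpl, a repressor and activator of exons with CA repeats, was at 0.98 to 4.65 in VIP and 4.05 to 8.29 in CA1 mice (-2.34), and Srsf9 at 0.00 to 2.92 and 1.95 to 5.99 (-3.28). DG against VIP gave 2 calls (0.722%), 5 higher and 2 lower under 0.05 (12.9%), 3 in DESeq2 (6.4%) and 1 in limma (1.72%). CA3 against CA1 gave 0 calls (0%), 0 under 0.05 (6.46%), and 0 in DESeq2 (3.47%) and limma (0.506%), with Elavl2 (2.70), Celf1 (-1.15) and Hnrnpu (-1.01) nearest. Subiculum against CA1 gave 0 calls (0.012%), 2 higher and 1 lower under 0.05 (11.3%), 1 in DESeq2, Hnrnpf (4.42%), and 0 in limma (0.198%). Hnrnpf had 1 count over 21 subiculum nuclei against 1572 over 40 CA1 nuclei, and Elavl4 (1.37) and Elavl3 (2.25) were the next. Members without overlap of mice were Celf1, Celf2 and Rbfox2 for VIP below CA1 (1.96% of all genes in either direction), Elavl2, Elavl4, Hnrnpll and Rbfox2 for DG below CA1 (7%), and Celf1 and Celf2 above with Elavl4 and Prpf38a below for DG against VIP (8.01%).

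By family, SR proteins had 5 of 13 folds above 0 for DG against CA1 (median -0.07) and 8 of 13 for VIP against CA1 (median 0.26), and hnRNPs 9 of 20 (-0.11) and 10 of 20 (0.00). Ptbp2, the PTB protein of developing neurons, was at 2.80 to 3.39 in DG, 1.45 to 6.11 in CA1 and 2.11 to 4.23 in VIP mice, and Ptbp1, its counterpart in most other tissues, at 0.07 to 1.31, 0.00 to 2.66 and 0.00 to 4.75. Both overlapped between all 3 types.

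Other genes of the pathway were taken from a list of 69, core spliceosome subunits, SR kinases, RBM, MBNL, KHDRBS and QKI proteins and the nuclear speckle and paraspeckle RNAs Malat1 and Neat1, of which 66 to 68 were tested. Only comparisons of DG with HC gave calls among them, all higher. Neat1, the scaffold RNA of paraspeckles, was at 0.18 and 0.29 in HC, 4.19 in 1h FOS+ nuclei, 2.45 and 2.55 at 4h and 0.58 to 2.93 at 5h, and was called in each (adjusted p = 0.01, 0.046 and 0.0445) with log2 folds of 9.07, 6.57 and 6.38. At 5h Luc7l2, a U1-associated factor (1.66, adjusted p = 0.0432), and Malat1 (1.57, adjusted p = 0.0432) were called too. Luc7l2 was at 7.18 to 9.29 at 5h and at 6.78 and 7.55 in HC, so these overlapped. Malat1 was at 17.43 to 18.4 at 5h and at 16.56 and 16.88 in HC. The call rates over all genes were 0.27% at 1h FOS+, 0.246% at 4h and 0.262% at 5h. In these comparisons with HC, exposure and date cannot be told apart. In A>A 4 of 68 were higher and 3 lower under an unadjusted 0.05 (15.4% of all genes) and 0 were called (0.041%). Against HC, 11 were higher and 0 lower at 4h (5.58%), 7 and 6 at 5h (10.3%), and 7 and 1 at 1h FOS+ (5.9%). The other comparisons gave 0 to 4 in either direction (1.67 to 14.6% of all genes).

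Members were often annotated with unproductive isoforms. A transcript annotated with a retained intron was listed for 48 of 67 members (71.6%) and for 42.4% of 20655 protein-coding genes, and one marked for nonsense-mediated decay for 37 members (55.2%) and 20.8%, reaching 11 of the 13 SR proteins (84.6%). The median number of annotated transcripts was 9 for members and 4 for the protein-coding genes, and its part in these shares was not tested. Counts were summed over all isoforms of a gene, so a change in an unproductive isoform cannot be told apart from one in the coding isoform.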

How the data were processed

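Nuclei of wild-type mice were sorted and sequenced one by one with SmartSeq2 (single-end, without strand). The authors aligned reads to mm10 with Bowtie and quantified genes with RSEM, as the submitters' processing notes and the study's methods name them, with versions not given in the sources used here. They deposited, for each cohort, RSEM expected counts written as whole numbers and values on a log2 scale, log2(TPM + 1). RSEM divides reads shared by near-identical copies, so genes with processed pseudogenes such as Hnrnpa1 and Srsf3 are uncertain.

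Of 912 nuclei, 818 had at least 100000 alignable reads and 4000 genes with log2(TPM + 1) above 1, and 35 FOS- HC or 1h nuclei with Arc above 2.5 were left out, giving 783. Of 42802 genes in the count and 40221 in the log2 tables, 30 and 23 without a value were dropped, and no column lacked a sample. Counts were already whole, needed no rounding, and were summed per mouse, cell type and group over at least 2 nuclei, then tested with edgeR 4.0.16 (TMM, quasi-likelihood test, filterByExpr, Benjamini-Hochberg adjustment over all genes tested, threshold 0.05) in R 4.3.3. All 67 members passed the count filter in each fit. One fit covered all DG groups, one each CA1 and VIP, one the FOS- nuclei of the first cohort across types, and one DG, CA1 and VIP nuclei of the first cohort together for differences between their FOS changes. Alternatives were DESeq2 1.42.0, limma 3.58.1 on mean log2(TPM + 1) of genes averaging at least 0.5, DESeq2's size factors, no filter, at least 5 nuclei, no thresholds on nuclei, other definitions of a mouse, an exposure covariate, the sort gate, a replicate block and leaving out each mouse. For A>A, the mice that gave both groups were also fitted alone, together and within each date. The fits were run on simulated data with known changes, at a spread far below the fitted common dispersions of 1.74 to 2.375. That simulation therefore cannot show how well changes are recovered, or false calls avoided, at the spread of these data. Intervals for shares are exact binomial (95%) and, with PCR reads that carry no molecular identifiers, cover counting error only.

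Mice were taken to be separate animals, told apart by the exposure and number in the labels and, in the first cohort, the date. FOS+ and FOS- nuclei, or 2 cell types, that share these were taken to come from the same animal. For the A>A FOS- mice whose labels give several dates and ages, whether a number stands for a single animal was not settled. Deviations from group means correlated at a mean r of 0.0433 within and -0.00541 between mice in A>A, 0.0509 and -0.0252 in CA1, 0.0121 and -0.00603 in VIP, 0.0408 and -0.00815 between CA3 and CA1, and 0.0207 and -0.00414 between subiculum and CA1.

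Members and lists were chosen with earlier results of these data known. Members were named if called, or by smallest p until 3 were named in a comparison, and some for their role whatever their values. Promoter letters and positions are from RefSeq (GRCm38.p6) and GENCODE annotation of the same build.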

Additional observations from a re-analysis of the deposited data

Results flagged for a closer look

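Among 30 groups of 4 to 10 mice, 2 values lay far from the rest of their group. The nominal rate of chance flags is about 1 in 20 groups, and this rate was not checked on these data. Srsf5 in A>A FOS+ nuclei was at 10.06 in mouse 25 and 9.08 to 9.44 in the other mice of its group (gap of 0.629 of the range, n = 6). Without this mouse the A>A fold of Srsf5 was 0.65 in place of 0.88. Hnrnpf in subiculum nuclei was at 0.28 in 1 mouse and 0 in the other mice (gap of 1 of the range, n = 5), from the 1 count described above.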

How the results depend on the processing

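The number of members called was recomputed 396 times, and 207 of 233 alternatives that left out a mouse and 134 of 163 others kept it within 1.5 times. DESeq2 called 3 members for DG 1h FOS+ against FOS-, 1 for 1h FOS- against HC, 2 at 4h, 6 at 5h, 4 in A>A, 4 in A>C, 1 for VIP FOS, 3 for VIP against CA1, 1 for subiculum against CA1, and 1, 2 and 1 for the differences between DG and CA1, DG and VIP, and 1h and A>A. limma called 0 at 1h FOS+ against FOS-, 1 against HC, 3 at 4h, 6 at 5h, 5 in A>A, 0 for DG against CA1, 4 for VIP against CA1 and 1 for DG against VIP. At 5h the count was 0 with DESeq2's size factors, with no filter and with mice split by date, and 6 with the later date's 5h mice alone, an alternative chosen after seeing the data. In A>A it was 2 with all nuclei and with mice split by date. With the sort gate it was 0 for VIP against CA1 and 1 for DG against VIP. With the replicate block it was 0 for 1h FOS+ against FOS-, and the block changed no other call. The cause of these differences was not tested. Leaving out 1 mouse gave 0 to 1 calls for 1h FOS+ against FOS- (0 without A>A mouse 24 or 27), 0 to 3 against HC, 0 to 2 at 4h, 0 to 1 at 5h, 0 to 1 in A>A (1 without 5h mouse 23 or 9) and 1 to 2 for DG against VIP. Values that turned sign were Hnrnpu for CA3 against CA1 (0.55 in limma), Hnrnpa0 (0.06 in limma, 0.95 with FOS- nuclei kept whatever their Arc) and Hnrnpu (-0.01 in limma) for the difference between DG and CA1, and Srsf4 in VIP, which ran from -9.15 to 0. Of other values that were not called, leaving out 1 mouse moved Hnrnpll in VIP 1h FOS- against HC from 3.46 to as low as 2.16, Tra2b for DG against CA1 from 1.16 to 0.66 and Elavl3 for subiculum against CA1 from 2.25 to between 1.49 and 3.22. Depth limits the members seen in few nuclei, such as Nova1, Srsf4 and Hnrnpa0, where 1 nucleus or mouse can set a fold.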

Other observations

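Types with few mice entered no comparison. Nuclei predicted as parvalbumin cells came from 2 mice at 1h FOS+ and 1 HC mouse, with 2 nuclei each, and Celf2 was at 6.26 and 7.63 in the former and 8.22 in the latter. Elavl2 was at 3.29, 9.36 and 7.06, Srsf5 at 8.93, 9.76 and 9.62, and Prpf38b at 2.54, 0.78 and 0. The 5 nuclei predicted as Th cells came from 1 HC mouse, with Celf2 at 10.49, Elavl2 at 5.33, Elavl4 at 3.47, Srsf5 at 8.97 and Prpf38b at 2.24. Celf2 in these Th nuclei lay in the range of pyramidal and granule neurons and above every VIP mouse. With 1 or 2 mice in each, these values have no test.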
